A study of Mus musculus with 6 samples.

Results

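The genes described here were 7 markers of upper cortical layer neurons, namely Cux1, Cux2, Rorb, Pou3f2, Lamp5, Calb1 and Rasgrf2. Their rows were found by symbol, as those whose Ensembl identifier maps to these mouse symbols. This rule uses no measured value, although the list itself was drawn up with earlier results of these data known. All 7 were found, each with 1 identifier, among 21006 genes. The samples were prefrontal cortex of wild type male C57BL/6 mice aged 18 months by the age label, although the sample titles carry 17M. The PND group (postoperative neurocognitive disorder model, n = 3) received 1.5% isoflurane and an exploratory laparotomy, which is a surgical inspection of the abdominal organs, of 30 minutes. The CON group (n = 3) had neither anesthesia nor operation. Per the methods of the study, mice of both groups went through the same behavioral tests, and both were deeply anesthetized with isoflurane before perfusion at harvest. By the same methods, harvest followed the last test, a Barnes maze of spatial memory run in the days after the operation. Operated mice also received lidocaine cream and povidone iodine. Levels are given as FPKM, fragments scaled to exon length and to library size, with 1 animal per sample. Because isoflurane, surgery and this care after it were always given together, their effects cannot be told apart.

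The neocortex is a stack of cell layers, and its excitatory neurons are born in an order that places late-born cells in the upper layers. Upper-layer neurons mainly connect cortical areas and the 2 hemispheres with each other, whereas deep-layer neurons mainly project out of the cortex. Cux1, Cux2, Rorb and Pou3f2 encode transcription factors that mark or specify these cells, and Lamp5, Calb1 and Rasgrf2 encode membrane, calcium-binding and signalling proteins enriched there. The markers are not exclusive to excitatory cells. Lamp5 and Calb1 are also known from cortical interneurons, Calb1 from striatal projection neurons, and Rorb and Pou3f2 from glial cells. In bulk tissue, fewer cells of a type and less RNA per cell cannot be told apart.

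No difference between PND and CON was detected for any of the 7 markers. Their unadjusted p-values in limma ranged from 0.549 for Rasgrf2 to 0.972 for Calb1, and 0 of 7 lay below 0.05, against 569 of the 18185 genes tested (3.13%). The cut-off of the study, an absolute log2 fold change above 1 with an unadjusted p below 0.05, was passed by 0 of 7 markers and by 1.33% of all genes. An adjusted p below 0.05 was also reached by 0 of 7 markers, against 0.011% of all genes (2 genes), and each marker had an adjusted p of 0.9999 (Benjamini-Hochberg). The groups overlapped for all 7 markers, whereas they did not overlap for 7.66% of all genes. With so few markers and such low background shares, counts of 0 do not set the markers apart from other genes. The median log2 fold change of the markers was -0.0067, beside 0.012 over all genes tested, with 3 markers above 0 and 4 below. The summed level of the 7 markers was 116.3 ± 4.96 FPKM for the PND samples and 116.2 ± 13.6 FPKM for the CON samples (SD, n = 3).

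The precision of the comparison is given by the 95% interval of each log2 fold change (PND minus CON, on the log2(FPKM + 0.1) scale). The widest interval was that of Cux1, from -0.70 to 0.44, and the narrowest were those of Rasgrf2, from -0.26 to 0.44, and Pou3f2, from -0.44 to 0.28. A 2-fold change in either direction, which is 1 on this scale, therefore lay outside the interval of every marker. Across 15 alternative analyses per marker, 105 in all, 0 gave an unadjusted p below 0.05, and the smallest was 0.0555 for Lamp5 without CON replicate 2. Leaving out that sample moved the log2 fold change of Lamp5 from 0.10 to 0.31.

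**Figure D1:**
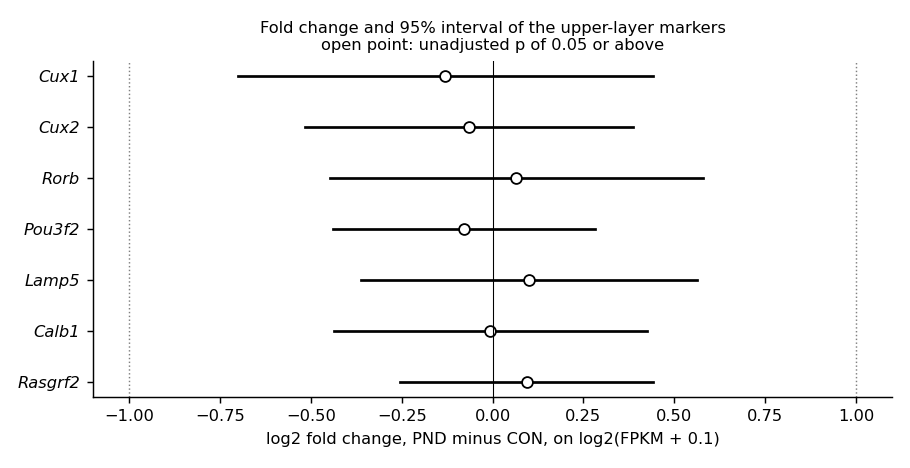
Log2 fold change (PND minus CON, x axis) with its 95% interval for each of the 7 markers, with open points for an unadjusted p of 0.05 or above and dotted lines at the cut-off of 1. Every marker interval spans 0 and lies within the dotted lines.

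Regarding the tissue, markers of excitatory cortical neurons were present in every sample. Neurod6, a transcription factor of these neurons, ranged from 78.2 to 103.7 FPKM, and Slc17a7, their vesicular glutamate transporter, from 23.6 to 73.8 FPKM. Markers of the striatum, which lies beneath the frontal cortex, were present as well, with 50.0 to 146.6 FPKM of Penk, an opioid peptide precursor. The sum of 10 striatal markers was 143.5 FPKM in CON replicate 2 and 360.1 FPKM in CON replicate 3, and the other 4 samples lay between 227.3 and 274.3 FPKM. The defining choroid plexus gene Ttr and the olfactory bulb gene Tbx21 were listed at or below 0.21 and 0.10 FPKM. Other genes of these lists were higher in every sample. Clic6 of the choroid plexus list ranged from 0.70 to 2.14 FPKM, and Cdhr1 of the olfactory bulb list from 0.80 to 1.98 FPKM. The samples also differed in how levels followed GC content, the share of G and C bases in the transcript. In the 1233 most GC-rich genes the median deviation from the gene mean ran from -0.56 in CON replicate 1 to 0.49 in CON replicate 2. No sequencing batch is given in the labels.

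The 7 markers fell into 3 tiers of abundance. The upper tier held Calb1 (30.4 ± 5.04 FPKM, SD over the 6 samples), Rasgrf2 (27.3 ± 3.21 FPKM) and Pou3f2 (27.0 ± 3.50 FPKM), the middle tier Rorb (11.8 ± 2.34 FPKM) and Lamp5 (11.7 ± 2.12 FPKM), and the lower tier Cux2 (4.66 ± 0.746 FPKM) and Cux1 (3.38 ± 0.665 FPKM). Within the upper tier the order did not exceed the spread, since Calb1 exceeded Rasgrf2 in 4 of 6 samples and Rasgrf2 exceeded Pou3f2 in 2 of 6. Rorb exceeded Lamp5 in 3 of 6 samples. The steps between tiers were seen in every sample, with Pou3f2 2.30-fold above Rorb and Lamp5 2.48-fold above Cux2 on average. Cux2 exceeded Cux1 in 6 of 6 samples, by 1.38-fold on average. All 7 markers were above the median of the genes tested, which was 2.44 FPKM. Of the genes tested, 57.2% had a lower mean level than Cux1 and 94.95% a lower one than Calb1.

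**Figure D2:**
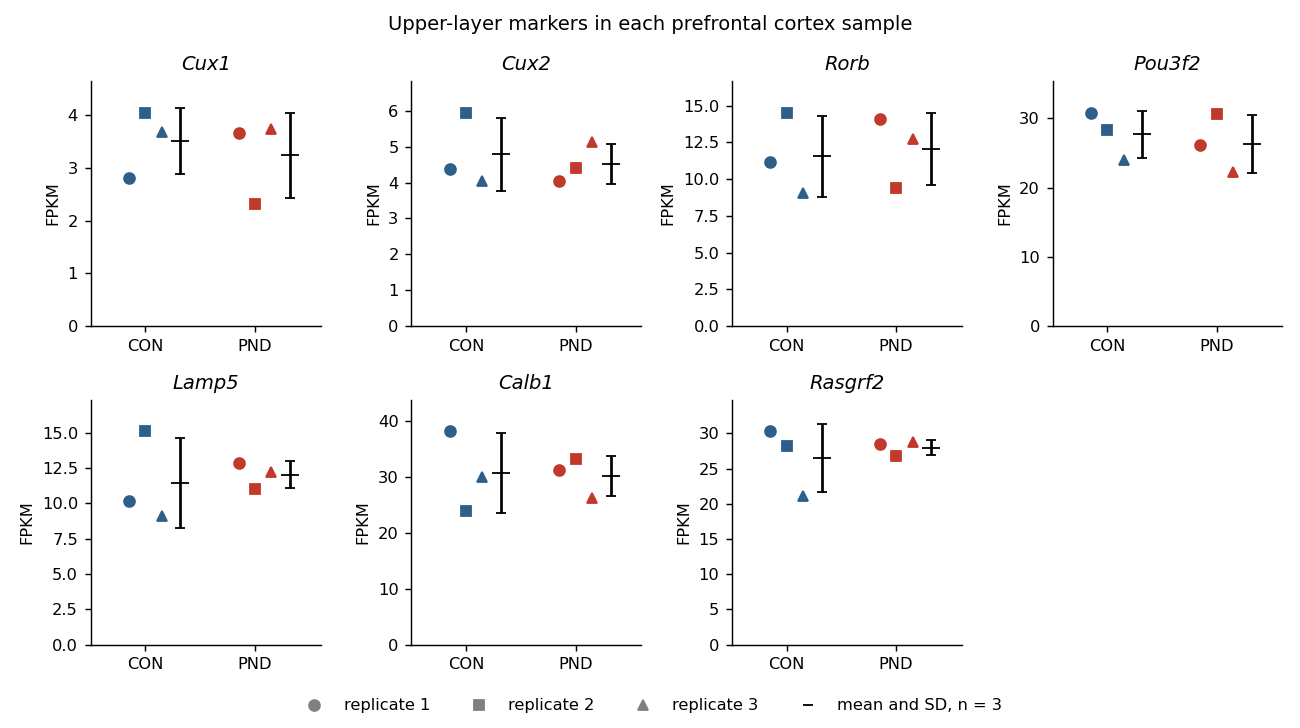
FPKM (y axis, from 0) of the 7 markers in each CON and PND sample, with replicates 1 to 3 as circle, square and triangle and the group mean ± SD beside them. For every marker the CON and PND points overlap.

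Cux1 (ENSMUSG00000029705, chromosome 5, 136248135 to 136567490, minus strand in GRCm38) encodes a homeodomain factor of upper-layer neurons that is also expressed widely outside the brain. From the same locus an alternative transcript encodes CASP, a Golgi membrane protein, so a gene-level value pools both products. Cux1 was at 3.66, 2.31 and 3.74 FPKM in PND replicates 1 to 3 and at 2.81, 4.05 and 3.68 FPKM in CON replicates 1 to 3. One low sample in each group, PND replicate 2 and CON replicate 1, stood apart from the other 4. The log2 fold change was -0.13 (SE 0.24), and without PND replicate 2 it was 0.090. Between 365.7 and 704.0 fragments per sample were estimated for Cux1, and its exons overlap Gm16599 on the opposite strand.

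Cux2 (ENSMUSG00000042589, chromosome 5, 121856366 to 122050102, minus strand) encodes the closest relative of CUX1, with a narrower upper-layer expression and a known role in dendrite and spine growth. Its level was 4.04, 4.39 and 5.14 FPKM in PND and 4.37, 5.94 and 4.05 FPKM in CON, replicates 1 to 3. CON replicate 2 was the highest sample, and the lowest PND and CON samples were nearly equal. PND minus CON was a log2 fold change of -0.066 (SE 0.19). The ratio of Cux2 to Cux1 within a sample was 1.46 ± 0.407 for PND and 1.37 ± 0.240 for CON (SD, n = 3), with the highest ratio, 1.90, in PND replicate 2.

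Rorb (ENSMUSG00000036192, chromosome 19, 18930605 to 19111196, minus strand) encodes a nuclear receptor that marks the cortical layer receiving thalamic input. It was measured at 14.1, 9.36 and 12.7 FPKM in PND and at 11.1, 14.5 and 9.05 FPKM in CON. High and low samples occurred in both groups, and every PND value lay within the CON range. This gave a log2 fold change of 0.065 (SE 0.22). Its relative Rora, which is expressed in many brain regions, was at 12.9 ± 1.37 FPKM in the PND samples and 13.5 ± 0.9995 FPKM in the CON samples, and its log2 fold change was -0.067 (SE 0.13). Rora was the steadier gene of the pair, and the ratio of Rorb to Rora ranged from 0.621 in CON replicate 3 to 1.12 in PND replicate 1.

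Pou3f2 (ENSMUSG00000095139, chromosome 4, 22482780 to 22488366, minus strand), also known as Brn2, is a gene of 1 exon whose product acts with POU3F3 in forming upper-layer neurons. Levels of 26.2, 30.6 and 22.2 FPKM in PND stood beside 30.8, 28.3 and 24.0 FPKM in CON. The lowest sample was PND replicate 3 and the highest CON replicate 1, and the groups covered nearly the same range. The resulting log2 fold change was -0.079 (SE 0.15). Pou3f3 was at 17.4 ± 2.76 FPKM in PND and 18.6 ± 0.761 FPKM in CON. The ratio of Pou3f2 to Pou3f3 was 1.51 ± 0.0234 in PND and 1.49 ± 0.124 in CON, and it ranged from 1.35 in CON replicate 3 to 1.59 in CON replicate 1.

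Lamp5 (ENSMUSG00000027270, chromosome 2, 136052239 to 136069917, plus strand) encodes a brain-specific member of the lysosome-associated membrane protein family. The PND samples held 12.9, 11.0 and 12.2 FPKM and the CON samples 10.1, 15.1 and 9.13 FPKM. All PND values lay between the lower pair of CON samples and CON replicate 2, which was the highest of the 6. Its log2 fold change was 0.10 (SE 0.20). The ubiquitous lysosomal relative Lamp1 was at 121.3 ± 6.44 FPKM in PND and 113.4 ± 22.4 FPKM in CON, and Lamp2 at 10.8 ± 0.434 and 11.0 ± 1.63 FPKM. Lamp5 thus made up 0.0992 ± 0.0099 of the Lamp1 level in PND and 0.105 ± 0.0439 in CON. Lamp5 had the fewest estimated fragments, 192.6 to 360.5 per sample.

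Calb1 (ENSMUSG00000028222, chromosome 4, 15881264 to 15908064, plus strand) encodes calbindin, a cytosolic calcium buffer. Its 3 PND values were 31.2, 33.1 and 26.1 FPKM, and its CON values were 38.1, 23.9 and 30.0 FPKM. The 2 extreme samples were both CON, with replicate 1 highest and replicate 2 lowest. The log2 fold change was -0.0067 (SE 0.18), the smallest in size among the markers. The related calcium-binding genes Calb2 and Pvalb, which mark interneurons, were at 6.33 ± 0.889 and 6.25 ± 1.33 FPKM in PND and at 5.37 ± 2.47 and 6.30 ± 4.06 FPKM in CON.

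Rasgrf2 (ENSMUSG00000021708, chromosome 13, 91880400 to 92131656, minus strand) encodes a calcium-responsive exchange factor that activates Ras and Rac GTPases. Values of 28.5, 26.7 and 28.8 FPKM in PND were the most closely grouped of any marker in relative terms. In CON they were 30.3, 28.1 and 21.1 FPKM, with replicate 3 below all other samples. The log2 fold change was 0.094 (SE 0.15). Its relative Rasgrf1 was at 33.6 ± 2.68 FPKM in PND and 34.1 ± 1.82 FPKM in CON, and the ratio of Rasgrf2 to Rasgrf1 was lowest in CON replicate 3, at 0.626, against 0.781 to 0.934 in the other 5 samples.

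The spread between samples holds differences between animals and between libraries, which cannot be told apart with 1 library per animal. The coefficient of variation over the 6 samples ran from 11.8% for Rasgrf2 to 19.8% for Rorb, whereas the estimated fragment numbers give a counting error of 2.23% for Rasgrf2 and 6.06% for Lamp5, the lowest and highest of the 7. Among genes of at least 1 FPKM the spread was ordinary, as 33.9% of these genes varied less than Rasgrf2 and 62.1% varied less than Cux1 on the log2 scale. For Rorb, Lamp5, Calb1 and Rasgrf2 the whole PND range lay inside the CON range, which held for 32.6% of all genes tested. The SD on the log2 scale was larger in CON than in PND for 5 of 7 markers, all but Cux1 and Pou3f2, beside 63.7% of all genes.

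The markers did not vary as 1 block across samples. Over the 6 samples, which carry both groups, 13 of the 21 marker pairs had a positive Pearson r of log2(FPKM + 0.1) and 8 a negative one, from -0.75 for Cux2 with Calb1 to 0.88 for Rorb with Lamp5. Cux1, Cux2, Rorb and Lamp5 all had their highest level in CON replicate 2, the sample in which Calb1 was lowest. Rorb, Lamp5 and Rasgrf2 were lowest in CON replicate 3. These correlations are descriptions of 6 libraries that share the GC pattern and the striatal content given above.

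These measures were set beside each marker, and their part in its spread was not tested. Calb1, the marker with the lowest GC content (36.8%), had an r of -0.97 with the median deviation of the most GC-rich genes over the 6 samples. This r was 0.82 for Cux1, 0.72 for Lamp5, 0.66 for Cux2, 0.64 for Rorb and -0.60 for Pou3f2. For Rasgrf2, with a GC content of 45.8%, it was -0.014. When the dependence on GC content was removed by a smooth fit in each sample, the SD of Calb1 over the samples fell from 0.239 to 0.106 on the log2 scale, and the SE of its log2 fold change went from 0.18 to 0.099. The fold change then was 0.062 with a 95% interval from -0.17 to 0.29. For Rorb the SD went from 0.290 to 0.349. After the correction 13 of the 21 pairs were positive, but not the same 13, since 4 pairs, all with Cux2, changed sign. Cux2 with Calb1, the most negative pair before it, went from an r of -0.75 to 0.25, and Cux2 with Pou3f2 from -0.032 to 0.70. Cux2 with Cux1 went from 0.39 to -0.62 and Cux2 with Rorb from 0.56 to -0.39. Cux2 with Lamp5 went from 0.73 to 0.070, while Rorb with Lamp5 went from 0.88 to 0.76. For the summed striatal markers, the r was -0.89 with Lamp5, -0.79 with Rorb, -0.73 with Cux2, -0.58 with Rasgrf2, -0.37 with Pou3f2, -0.31 with Cux1 and 0.45 with Calb1. After GC correction it was -0.93 for Lamp5, -0.76 for Rorb and -0.15 for Cux2. The summed striatal level did not separate the groups (258.6 ± 27.1 FPKM in PND, 250.1 ± 108.4 FPKM in CON).

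**Figure D3:**
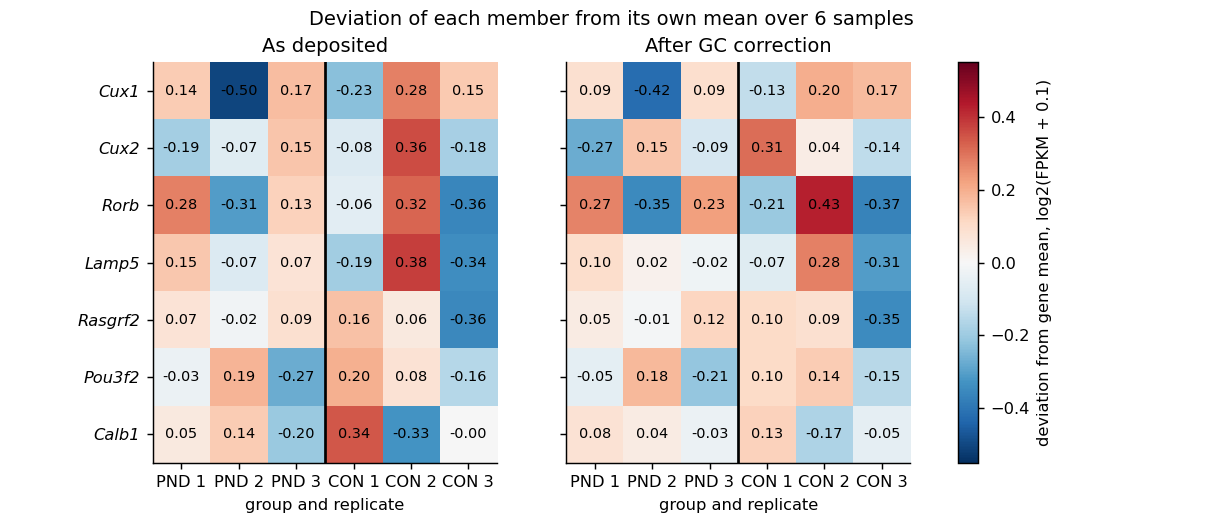
Deviation of each marker (rows) from its own mean over the samples (columns), on the log2(FPKM + 0.1) scale, as deposited (left) and after GC correction (right), with red for above and blue for below the mean. On the left, CON replicate 2 is high for Cux1, Cux2, Rorb and Lamp5 and low for Calb1 (-0.33), and on the right the Calb1 row pales to between -0.17 and 0.13.

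**Figure D4:**
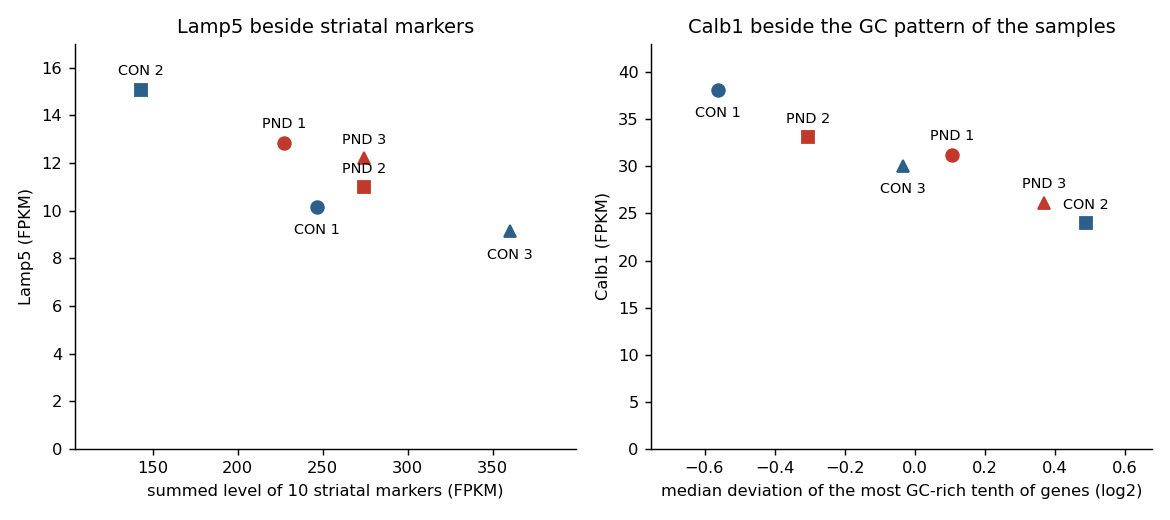
Left, Lamp5 (FPKM) against the sum of 10 striatal markers (FPKM). Right, Calb1 (FPKM) against the median log2 deviation of the 1233 most GC-rich genes, with 1 point per sample in both panels. CON replicates 2 and 3 form the ends on the left and CON replicates 1 and 2 the ends on the right, with the PND samples between them in both.

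Because Rorb and Lamp5 had the highest correlation among the markers, the bases upstream of their RefSeq start sites are shown, beside those of Pou3f2, whose r was -0.12 with Rorb and 0.025 with Lamp5 as deposited, and -0.11 and 0.53 after GC correction. The sequences are from the RefSeq promoter table on GRCm38.p6, in which 6 of the 7 markers had an entry and Calb1 had none. They are chr19:19111197-19111446 (minus strand) for Rorb, chr2:136052089-136052238 (plus strand) for Lamp5, ending before the first annotated exon of GENCODE M21, and chr4:22488367-22488616 (minus strand) for Pou3f2. Capitals mark CCAAT boxes and GC boxes (GGGCGG), on either strand.
Rorb: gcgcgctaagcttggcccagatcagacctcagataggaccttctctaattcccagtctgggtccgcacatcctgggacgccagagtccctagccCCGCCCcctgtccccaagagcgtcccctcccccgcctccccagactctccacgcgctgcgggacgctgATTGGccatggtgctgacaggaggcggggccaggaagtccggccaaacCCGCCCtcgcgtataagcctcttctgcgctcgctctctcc
Lamp5: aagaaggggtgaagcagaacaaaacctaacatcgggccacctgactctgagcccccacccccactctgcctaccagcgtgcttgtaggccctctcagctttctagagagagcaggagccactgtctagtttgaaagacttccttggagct
Pou3f2: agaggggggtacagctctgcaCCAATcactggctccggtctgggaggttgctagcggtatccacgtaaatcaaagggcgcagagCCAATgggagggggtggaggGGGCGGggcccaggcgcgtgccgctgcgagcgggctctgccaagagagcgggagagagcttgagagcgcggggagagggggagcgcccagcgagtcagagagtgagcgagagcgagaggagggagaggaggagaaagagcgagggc

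The upstream window of Rorb had 66.0% GC and 18 CpG dinucleotides, held 1 CCAAT box and 2 GC boxes, and was close in composition to that of Pou3f2, with 66.8% GC, 18 CpG, 2 CCAAT boxes and 1 GC box. The Lamp5 window differed from both, with 49.2% GC and 3 CpG over the same 250 bases. Its full window held a CCAAT box, in the bases that are not printed, and no GC box. Over the 6 marker windows, 3 held a CCAAT box (Rorb, Lamp5 and Pou3f2) and 2 a GC box (Rorb and Pou3f2), and those of Cux1, Cux2 and Rasgrf2 held neither. The windows of Cux1, Cux2 and Rasgrf2 had 62.8%, 80.0% and 65.2% GC, and the median of all 32851 windows was 52.4%. Those of Cux1 and Cux2 lay inside the gene as annotated in GENCODE M21. Their RefSeq start sites were 1509 and 251 bases from the start of that annotation. All motifs were searched on both strands, and the CCAAT box occurred in 33.8% of all windows and the GC box in 32.7%. The TATA box, searched as TATAAA, occurred in 12.4% of all windows. The motif bound by CUX factors was searched as ATCGAT and occurred in 0.728% of them. The core motif of ROR receptors was searched as AGGTCA and occurred in 14.0% of them. The octamer of POU factors, ATGCAAAT, was found in 1.6% of them. These last 4 motifs occurred in 0 of the 6 marker windows. Such matches describe letters and not binding.

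Other abundant upper-layer genes, apart from Pou3f3, were Lmo4, Unc5d and Limch1. Lmo4, a transcriptional cofactor, was at 12.5 ± 4.57 FPKM in PND and 12.6 ± 7.33 FPKM in CON. Unc5d, a netrin receptor, was at 11.2 ± 0.199 FPKM in PND and 10.6 ± 2.59 FPKM in CON, and Limch1 was at 9.80 ± 0.754 and 10.7 ± 1.32 FPKM. Each of these genes had an unadjusted p above 0.05. Of 13 relatives of the markers from the same gene families, 12 were tested and 0 had an unadjusted p below 0.05, with a median log2 fold change of 0.15.

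Markers of deep cortical layers were compared in the same fit. Of 17 genes, 0 had an unadjusted p below 0.05, 11 lay above 0 and 6 below, and the median log2 fold change was 0.12. Pcp4, a calmodulin-binding protein, was at 78.6 ± 14.1 FPKM in PND and 70.5 ± 25.2 FPKM in CON, and Bcl11b, a factor of subcortically projecting neurons, at 20.6 ± 1.54 and 18.0 ± 4.04 FPKM. Tbr1, which specifies deep-layer neurons, was at 18.4 ± 6.14 and 20.6 ± 3.72 FPKM. Neither the 8 excitatory nor the 8 pan-neuronal nor the 12 inhibitory markers included a gene with an unadjusted p below 0.05 (0 genes in each), and their median log2 fold changes were -0.092, 0.024 and 0.091. Since deep-layer and neuronal genes were measured in the same 6 libraries, these counts are not independent of those of the markers.

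Among cell types other than cortical neurons, single genes had an unadjusted p below 0.05, as did 3.13% of all genes tested. In the striatal list it was Pde10a (log2 fold change 0.62), 1 of 10 genes, although all 10 lay above 0 with a median of 0.15. In the astrocyte list 2 of 8 genes had one, Gfap (0.66) and Aqp4 (-0.36). The oligodendrocyte list had 1 of 8, Opalin (-0.78), the microglial list 1 of 8, P2ry12 (-0.76), and the choroid plexus list 1 of 3 tested, Clic6 (0.80). Of the 15 alternatives, Pde10a had an unadjusted p below 0.05 in 8, with p up to 0.0957 in the others, Opalin in 9 (up to 0.0953), Aqp4 in 10 (up to 0.0962) and Clic6 in 11 (up to 0.102). With the replicate block, p was 0.0699 for Pde10a and 0.0636 for Opalin. The lists of oligodendrocyte precursors, endothelium and olfactory bulb had 0 of 6, 0 of 6 and 0 of 3. Their part in the levels of the upper-layer markers was not tested.

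For each marker the genes of at least 1 FPKM most alike in profile were named, with Pearson r over the 6 samples among 12316 candidates. They were Zfp12 (0.994) and Zfp827 (0.989) for Cux1, Kcns3 (0.990) and Slc8a2 (0.986) for Cux2, Dhx57 and Gpr137b (both 0.990) for Rorb, and Nectin3 (0.993) and Tmem237 (0.976) for Pou3f2. They were Pdgfb (0.995) and Slc13a5 (0.989) for Lamp5, Gm44230 (0.998) and Plppr5 (0.997) for Calb1, and Decr2 (0.995) and Gm17977 (0.992) for Rasgrf2. With 6 samples such values are common, as between 68 genes (for Pou3f2) and 554 genes (for Calb1) had an r above 0.9.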

How the data were processed

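mRNA was measured in 6 prefrontal cortex samples, 3 PND and 3 CON, grouped by the treatment label and numbered by the title. The authors removed ribosomal RNA, filtered reads with Seqtk, aligned them with HISAT2, counted fragments with StringTie, applied TMM scaling and deposited FPKM per gene. The alignment build, annotation and use of strand are not given in the sources used here. The submitters' processing notes name mm8, mm9 and Bowtie 0.12.2 with no role. Whether reads of overlapping genes were split between them is thus unknown.

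Of 21006 identifiers, 20866 had a symbol. GENCODE M21 (GRCm38) supplied coordinates, GC content and exon lengths, which describe that annotation. Fragment numbers were estimated from the steps of low FPKM values times exon length, which gave effective depths between 7194900 and 9392960 fragments per sample. A whole number was met to within 0.05 by 41.3% to 44.7% of values in the range 0.5 to 20.5 fragments, so the estimates are approximate. Counting errors derived from them cover no other error.

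The 2 groups were compared by limma 3.58.1 (R 4.3.3, lmFit, eBayes with intensity trend, two-sided) on log2(FPKM + 0.1), over 18185 genes whose mean reached 0.1 FPKM, with Benjamini-Hochberg adjustment over all of them. The scale understates the change of low genes. The fit was tested on simulated data. Stretches shared with other genes (95% identity over at least 100 bases) were searched with blastn 2.17.0, and were found for Cux1 (with 2 genes) and Cux2 (with 1 gene) only, while Rorb, Pou3f2, Lamp5, Calb1 and Rasgrf2 had no such stretch.

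The 7 markers and the lists were chosen with earlier results of these data known, as was the GC correction (loess on GC content, span 0.3). All markers were named, and from the lists the genes with an unadjusted p below 0.05 and the most abundant ones. Genes alike in profile were the 2 with the highest r per marker. Some genes of the lists of upper-layer and striatal markers, and counts over the former, are not reported here.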

Additional observations from a re-analysis of the deposited data

How the results depend on the processing

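For the markers, the count with an unadjusted p below 0.05 was 0 in all 15 alternatives (limma). Their median log2 fold change ranged from -0.021 to 0.062 across the fits that kept all samples and from -0.090 to 0.097 when 1 was left out. The direction of a marker changed in 13 of 105 fits. With 1 sample left out, Cux1 ranged from -0.28 to 0.090, Cux2 from -0.17 to 0.097, Rorb from -0.098 to 0.24, Pou3f2 from -0.19 to 0.037, Lamp5 from -0.045 to 0.31, Calb1 from -0.17 to 0.16 and Rasgrf2 from -0.061 to 0.20. Calb1 was 0.018 with quantile normalization, 0.062 with GC correction and 0.062 with GC correction and the replicate block.

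Over all genes, the cut-off was passed by 241 genes, by 25 with a pseudocount of 1, by 59 with a filter of 1 FPKM and by 235 to 388 when 1 sample was left out. The number of genes with an unadjusted p below 0.05 was 569. It was 331 with the filter of 1 FPKM and 406 to 960 when 1 sample was left out. An adjusted p below 0.05 was found for 2 genes, and for 0 with a pseudocount of 1, no filter, quantile normalization, median centring, or the replicate block without and with GC correction, where, in this order, 579, 681, 581, 549, 361 and 637 genes had an unadjusted p below 0.05. It was found for 0 to 5 genes when 1 sample was left out. The groups did not overlap for 1393 genes, for 888 with the filter of 1 FPKM and for 2484 to 3884 when 1 sample was left out. Without CON replicate 2, 388 genes passed the cut-off and 960 had an unadjusted p below 0.05. Without CON replicate 1, 5 genes had an adjusted p below 0.05. Of the genes past the cut-off, 153 were higher and 88 lower in PND, and with quantile normalization 124 were higher and 116 lower. Without PND replicate 3 the balance turned, to 107 higher and 128 lower, and without CON replicate 2 it was 286 higher and 102 lower.

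Same-numbered samples were checked for pairing. Across genes, the deviations of each pair from the means of its groups correlated at -0.049, -0.45 and 0.027. The mean for differently numbered samples was 0.079, so same-numbered samples were not more alike by this measure. Deviations from the mean of so few samples are tied to each other, so this check cannot decide whether the samples were paired. With the replicate block 226 genes passed the cut-off, 361 had an unadjusted p below 0.05, 1393 did not overlap, and the marker count and median were 0 and -0.0067.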

Other observations

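In the same fit, 3 genes of glial and microglial lists had unadjusted p-values below 0.05 and groups that did not overlap, none of them with an adjusted p below 0.05 (each 0.9999 in limma). Over all genes tested, 3.13% had such an unadjusted p and 7.66% had groups that did not overlap. The 3 genes were named because of these values. Gfap, the intermediate filament of astrocytes, was at 22.9, 17.7 and 24.7 FPKM in PND and 13.0, 14.9 and 13.0 FPKM in CON, which is a log2 fold change of 0.66 (SE 0.15, p before adjustment 0.00294). P2ry12, the purinergic receptor of homeostatic microglia, was at 4.61, 7.06 and 4.79 FPKM in PND and 10.7, 9.47 and 7.68 FPKM in CON, which is a log2 fold change of -0.76 (SE 0.21, p before adjustment 0.00767). Aqp4, the water channel of astrocyte endfeet, was at 24.0 ± 2.14 FPKM for PND against 30.8 ± 3.85 FPKM for CON, and its p before adjustment was 0.0275. The p of Gfap stayed between 0.000851 and 0.0148 in all 15 alternatives and that of P2ry12 between 0.00195 and 0.0322. That of Aqp4 was 0.0962 without PND replicate 2, 0.0774 without CON replicate 1, 0.0745 without CON replicate 3, 0.0587 with median centring and 0.0735 with no intensity trend. Within the astrocyte list the 2 genes went in opposite directions, and the median log2 fold change of the 8 genes was 0.0013. The microglial list had 4 genes above 0 and 4 below, with a median log2 fold change of 0.013.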
